A study of Homo sapiens with 6 samples.

Results

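The genes described are 8 members of the IFIT and IFITM families, IFIT1, IFIT2, IFIT3, IFIT5, IFITM1, IFITM2, IFITM3 and IFITM10, chosen by symbol from the 63241 genes of the deposited tables. Their RNA was measured by RNA-seq in MDA-MB-231, a cell line from a human breast cancer of the triple-negative type, of genotype WT and grown in DMEM with serum. Cells received 5 μM NCD (nitidine chloride, a benzophenanthridine alkaloid from plants) or the vehicle, 0.1% DMSO, for 24 h, and each treatment has 3 libraries. For NCD replicates 2 and 3 the description text names other line numbers, while the cell line field of all 6 libraries gives MDA-MB-231. No label says that the libraries of a group came from separate cultures, so p-values measure the spread between these libraries, which may be technical.

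Library totals ran from 18223594 to 19410833 counts under DMSO and from 18232169 to 21629653 under NCD. DMSO replicate 2 and NCD replicate 3 stood apart from the others of their group: the chi-square per degree of freedom between replicates was 16.9 for DMSO replicates 1 and 2, and 4.42 for DMSO replicates 1 and 3. Between NCD replicates 1 and 2 it was 2.09, against 15.9 between NCD replicates 1 and 3. The line's mesenchymal markers were present, led by VIM at 3052 ± 100.0 CPM (SD, n = 3) with DMSO, although CD44 (log2 fold change -1.82), EGFR (-2.61) and AXL (-1.10, and -0.90 with libraries scaled by their totals) were lower with NCD. Of 6 luminal breast markers ESR1, PGR and CDH1 had at most 7 counts in any library, while GATA3, EPCAM and ERBB2 were detected and none of them was called. ERBB2 had 638 to 1421 counts (log2 fold change 0.71, edgeR adjusted p = 1.92e-05) and EPCAM 45 to 93 (0.57, edgeR adjusted p = 0.00998). Of 8 leukocyte markers, CD14 alone was tested and it did not pass, 4 had no count in any library, and their summed level was 0.120 to 0.547 CPM with DMSO and 0.559 to 1.00 CPM with NCD. Of the fibroblast markers COL1A1 was higher with NCD (log2 fold change 2.24), COL1A2 had no count, and DCN and LUM had at most 2. The part of these marker genes in the results was not tested.

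IFIT proteins are built of tetratricopeptide repeats and bind foreign RNA. IFIT1 holds RNA whose cap lacks ribose methylation, IFIT3 binds IFIT1 and IFIT2 in a complex, IFIT2 is also linked to cell death, and IFIT5 binds RNA that carries a bare triphosphate. IFITM proteins are small membrane proteins that hinder the fusion of enveloped viruses with the host membrane. IFITM1 sits mainly at the cell surface, IFITM2 and IFITM3 mainly in endosomes, and IFITM10 is a more distant relative with a less well described role. Interferon induces the IFIT genes and IFITM1, IFITM2 and IFITM3 through ISGF3, a transcription factor complex with STAT2 and IRF9 in it, which binds the interferon-stimulated response element (ISRE) in their promoters.

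The ISRE core GAAANNGAAA, which reads TTTCNNTTTC on the other strand, was searched on both strands of promoter windows of 300 bases (250 before and 50 after the transcript start) from RefSeq, build GRCh38.p14. Windows were found for IFIT1, IFIT3 (2 starts), IFIT5, IFITM1 and IFITM3, and every one of these 6 windows held the core. No window was found for IFIT2, IFITM2 or IFITM10, so their promoters were not searched. Among all 35116 windows 3.57% held the core. Counted by gene, 4.38% of all 27305 genes with a window held it, and 57.9% of 38 other interferon-stimulated genes did. The stretches before the start that hold the cores are shown because this element is shared by the promoters of the 5 members searched. Each runs 5′ to 3′ on the strand of its gene, with the cores in capitals.
IFIT1, chr10:89392487-89392549, plus strand: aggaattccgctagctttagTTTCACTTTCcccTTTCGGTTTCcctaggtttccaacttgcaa
IFIT3, first start, chr10:89327821-89327904, plus strand: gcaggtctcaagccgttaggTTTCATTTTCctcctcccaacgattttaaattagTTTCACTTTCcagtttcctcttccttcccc
IFIT3, second start, chr10:89332415-89332507, plus strand: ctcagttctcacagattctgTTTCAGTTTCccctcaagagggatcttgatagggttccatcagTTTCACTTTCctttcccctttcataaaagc
IFIT5, chr10:89414503-89414567, plus strand: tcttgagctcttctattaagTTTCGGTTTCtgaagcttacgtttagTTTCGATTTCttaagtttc
IFITM1, chr11:313980-314029, plus strand: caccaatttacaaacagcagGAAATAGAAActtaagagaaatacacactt
IFITM3, chr11:320866-320932, minus strand: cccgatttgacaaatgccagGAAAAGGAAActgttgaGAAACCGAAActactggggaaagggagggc

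Counted from the start site at position 1, with no position 0, the cores of IFIT1 lie at -116 to -107 and -103 to -94. Those of IFIT5 lie nearer the start, at -45 to -36, -19 to -10 and -4 to 6, the last of which is not printed above. In IFITM3 they lie at -52 to -43 and -35 to -26. IFITM1 holds cores at -40 to -31 and -6 to 4, and the latter overlaps the 1 GAS core (TTCNNNGAA, both strands) found among the members, TTCTGAGAA at -12 to -4. The GAS core was held by 7.66% of all windows. The 4 IFIT windows carry the core on the strand opposite to the gene, and the IFITM windows on the gene strand. A match describes letters only and is no sign of binding.

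The comparison asks how the RNA of these antiviral effectors differed after NCD. Of the 8 members, 4 were called higher (adjusted p below 0.05 and log2 fold change above 1), IFIT1, IFIT2, IFIT3 and IFITM1, and 0 were called lower. Across all 15295 genes tested, 13.5% were called higher, and among the 6808 tested genes spanning at most 25583 bases, the length of the longest member, 20.6% were. Without the fold threshold 7 members were higher at adjusted p below 0.05 and 0 lower, against 35.3% and 34.1% of all genes. Higher genes made up 43.6% of all calls, and 56.1% when libraries were scaled by their totals instead of TMM (the trimmed mean method used here). In 7 members all NCD libraries lay above all DMSO libraries, against 37.2% of all genes. Without DMSO replicate 2 and NCD replicate 3, the libraries that stood apart, the members called were again 4 higher and 0 lower. The median log2 fold change was 1.19 over the members, 2.68 over the IFIT genes, 0.76 over the IFITM genes and 0.04 over all genes. In bulk libraries, a change in the share of cells that express a gene and a change in RNA per cell cannot be told apart.

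**Figure D1:**
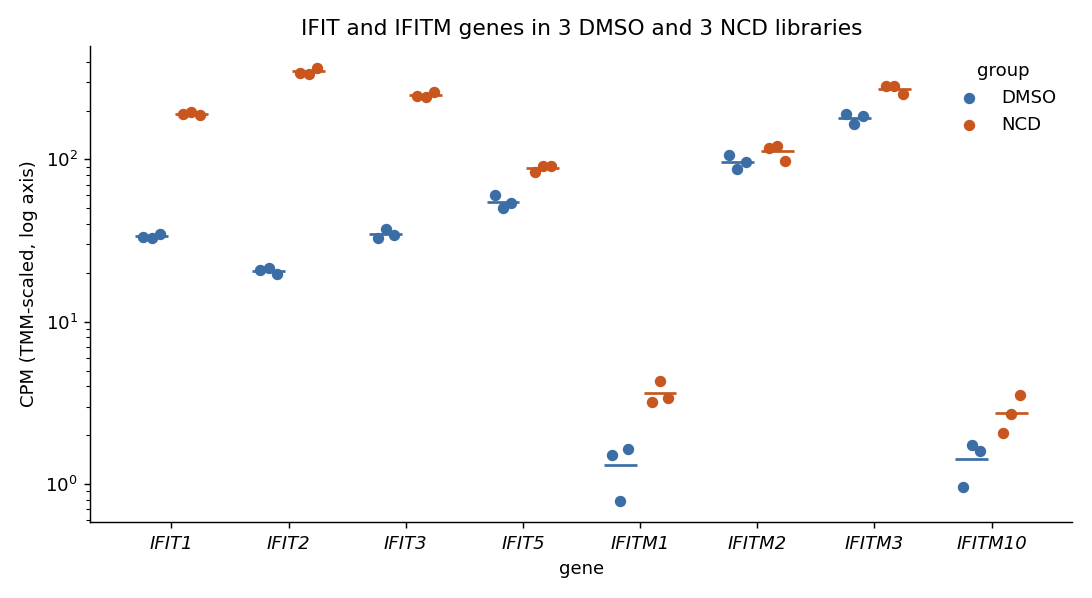
Expression of the 8 members in CPM (counts scaled to TMM library sizes, log axis) in each of 3 DMSO and 3 NCD libraries, each point 1 library, with the group mean as a bar. The IFIT1, IFIT2 and IFIT3 points lie at 19.7 to 37.3 CPM with DMSO and at 188 to 368 CPM with NCD, while the IFITM2 points of the groups overlap.

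IFIT2 (ENSG00000119922) lies on chromosome 10 from 89283694 to 89309276 on the plus strand (GENCODE release 29, GRCh38). Its counts were 346, 380 and 360 under DMSO and 7852, 6457 and 7896 under NCD. In CPM, counts scaled to library size, these are 20.8, 21.5 and 19.7 against 343, 334 and 368, so the NCD libraries were all far above the DMSO libraries. The mean was 20.7 ± 0.893 CPM with DMSO and 348 ± 17.6 CPM with NCD (SD, n = 3 each). Its log2 fold change of 4.07 (SE 0.07, edgeR's quasi-likelihood test, Benjamini-Hochberg adjusted p = 3.31e-09) was the largest of the members and ranked 40 from the top of the 15295 genes. This is a 16.8-fold rise.

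IFIT3 (ENSG00000119917; chromosome 10, 89327894 to 89340971, plus strand) had 32.8, 37.3 and 34.4 CPM with DMSO and 247, 243 and 259 with NCD. Here too the groups did not overlap, with means of 34.8 ± 2.28 and 249.8 ± 8.20 CPM (SD, n = 3 each). The log2 fold change was 2.84 (SE 0.07, edgeR adjusted p = 1.24e-08), a 7.17-fold rise that ranked 161 among all genes.

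IFIT1 (ENSG00000185745; chromosome 10, 89392546 to 89406486, plus strand), the cap sensor, had 33.1, 32.8 and 34.9 CPM with DMSO. With NCD it had 191, 196 and 188 CPM, with no overlap, and the means were 33.6 ± 1.16 and 192 ± 4.19 CPM (SD, n = 3 each). It rose 5.70-fold (log2 fold change 2.51, SE 0.06, edgeR adjusted p = 1.16e-08).

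IFIT5 (ENSG00000152778; chromosome 10, 89414586 to 89421001, plus strand), which binds triphosphate RNA, had 60.1, 50.3 and 53.7 CPM with DMSO and 83.7, 90.7 and 91.3 with NCD. The means were 54.7 ± 5.00 and 88.5 ± 4.24 CPM (SD, n = 3 each). The groups did not overlap, but the log2 fold change of 0.70 (SE 0.08, 95% interval 0.51 to 0.88, edgeR adjusted p = 5.44e-05) stayed under the fold threshold.

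The 4 IFIT genes sit in a row on chromosome 10, where LIPA spans IFIT2, IFIT3 and IFIT1 on the opposite strand and shares 65 exonic bases with IFIT2. LIPA, a lysosomal acid lipase, had a log2 fold change of 0.26 (edgeR adjusted p = 0.00721), under the fold threshold. Whether reads were counted by strand is not given in the sources used here, so reads in shared stretches cannot be assigned with certainty. AL353751.1, which shares 356 exonic bases with IFIT2 on the same strand, had 43.1 to 74.0 counts per library. IFIT1, IFIT3 and IFIT5 shared no 75-base stretch with the transcripts of other genes, and IFIT2 shared 7.77% of its stretches.

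IFITM3 (ENSG00000142089; chromosome 11, 319669 to 327537, minus strand), the endosomal restriction factor, had 192, 164 and 185 CPM with DMSO. With NCD it had 283, 283 and 252 CPM, above all DMSO libraries, and the means were 180.4 ± 14.3 and 273 ± 18.1 CPM (SD, n = 3 each). The log2 fold change was 0.60 (SE 0.08, 95% interval 0.42 to 0.77, edgeR adjusted p = 0.000117), a 1.51-fold difference under the fold threshold.

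IFITM2 (ENSG00000185201; chromosome 11, 307631 to 315272, plus strand) had 107, 87.4 and 96.2 CPM with DMSO and 117, 120.5 and 97.6 with NCD. It is the 1 member whose groups overlapped, since NCD replicate 3 lay below DMSO replicate 1, and its means were 96.8 ± 9.75 and 112 ± 12.4 CPM (SD, n = 3 each). The log2 fold change of 0.21 (SE 0.10, 95% interval -0.02 to 0.44) did not pass (edgeR adjusted p = 0.0916). Without NCD replicate 3 the adjusted p was 0.0145 with a log2 fold change of 0.28, still under the fold threshold.

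IFITM1 (ENSG00000185885; chromosome 11, 313506 to 315272, plus strand), the surface protein, was scarce: its counts were 25, 14 and 30 under DMSO and 73, 83 and 73 under NCD. Its level rose from 1.31 ± 0.457 to 3.62 ± 0.585 CPM (SD, n = 3 each), without overlap. The log2 fold change was 1.46 (SE 0.27, 95% interval 0.84 to 2.08, edgeR adjusted p = 0.00118), and it was 1.23 without DMSO replicate 2 and NCD replicate 3. IFITM1 shares 351 exonic bases with IFITM2, and 39.7% of its 75-base stretches occur in IFITM2 or IFITM3, so its value is uncertain where the counting split such reads. The sum of IFITM1 and IFITM2 was 108, 88.2 and 97.9 CPM with DMSO and 121, 125 and 101 CPM with NCD, with NCD replicate 3 again below DMSO replicate 1.

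IFITM10 (ENSG00000244242; chromosome 11, 1732410 to 1750591, minus strand) lies apart from the other IFITM genes. Its counts were 16, 31 and 29 under DMSO and 47, 52 and 76 under NCD, and its mean went from 1.43 ± 0.416 to 2.76 ± 0.747 CPM (SD, n = 3 each). Its log2 fold change was 0.93 (SE 0.29, 95% interval 0.27 to 1.60, edgeR adjusted p = 0.0186), just under the fold threshold. The value moved with single libraries and with the scaling: it was 1.09, past the threshold, without DMSO replicate 2 or without NCD replicate 1, and the adjusted p was 0.0666 without DMSO replicate 1 and 0.0649 without NCD replicate 3. With ribosomal protein genes as the scaling reference and all libraries kept, the adjusted p was 0.0692 at a log2 fold change of 0.93. AC068580.4 shares 1062 exonic bases with it, and 26.5% of its 75-base stretches occur in that gene.

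Summed over the family, IFIT RNA went from 143.8 ± 2.69 to 878 ± 23.8 CPM (SD, n = 3 each), 6.11 times the DMSO level. The summed IFITM RNA went from 279.9 ± 23.8 to 391 ± 30.1 CPM, 1.40 times. The IFIT sums were 147, 141.8 and 143 CPM with DMSO and 865, 863 and 905 CPM with NCD, and the IFITM sums 301, 254 and 285 against 406, 410.4 and 356 CPM, with no overlap in either family.

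Levels between genes were compared as CPM per kilobase of the longest transcript. With DMSO the order was IFITM3 at 223 ± 17.8, IFITM2 at 109 ± 10.9, IFIT3 at 13.95 ± 0.913, IFIT5 at 13.6 ± 1.25, IFIT1 at 7.28 ± 0.251, IFIT2 at 5.58 ± 0.241, IFITM1 at 1.54 ± 0.534 and IFITM10 at 0.377 ± 0.109 CPM per kilobase. With NCD it was IFITM3 at 337 ± 22.4, IFITM2 at 125 ± 13.9, IFIT3 at 100.1 ± 3.28, IFIT2 at 94.0 ± 4.76, IFIT1 at 41.5 ± 0.909, IFIT5 at 22.1 ± 1.06, IFITM1 at 4.24 ± 0.684 and IFITM10 at 0.725 ± 0.196 CPM per kilobase. Of neighbours in these orders, IFIT3 and IFIT5 overlapped with DMSO, and IFIT3 and IFIT2 with NCD, and the rest did not. With the union of exons as the length, IFIT5 stood above IFIT3 with DMSO, and IFITM2 fell below IFIT3 and IFIT2 with NCD. On that length IFIT3 (94.6 ± 3.11) and IFIT2 (84.9 ± 4.30) did not overlap with NCD.

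**Figure D2:**
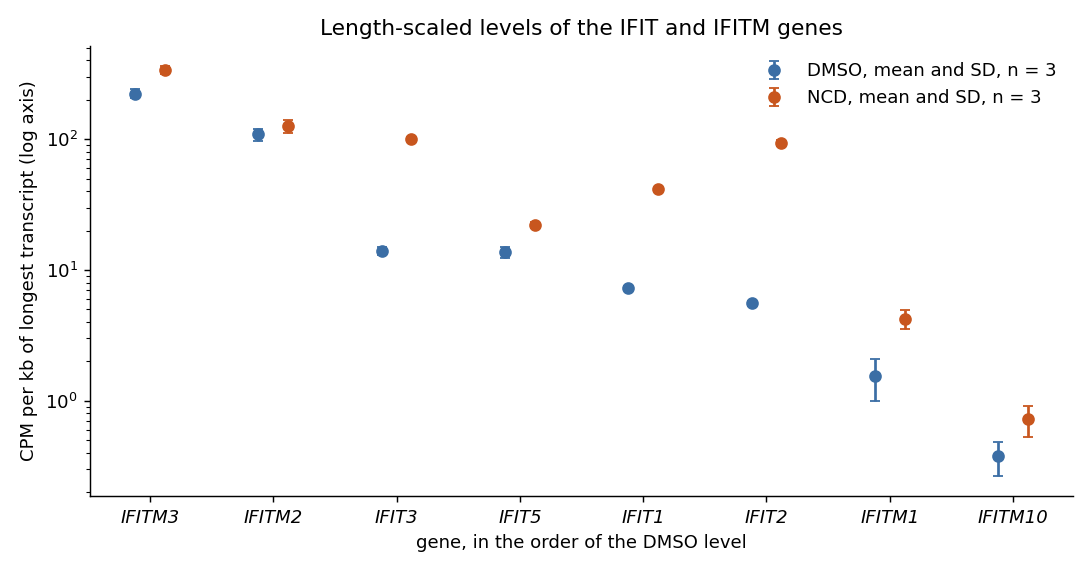
Levels of the 8 members in CPM per kilobase of the longest transcript (log axis), with the mean as a point and the SD over 3 libraries as a bar for DMSO and for NCD. IFITM3 is highest and IFITM10 lowest in both groups, and IFIT2 moves from the lowest IFIT gene with DMSO to overlap IFIT3 with NCD.

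The make-up of the IFIT RNA differed between the groups with no overlap for any of the 4 genes. IFIT2 gave 13.8 ± 0.536% of the summed IFIT CPM per kilobase with DMSO and 36.5 ± 0.797% with NCD, and IFIT5 gave 33.7 ± 2.80% and 8.56 ± 0.370%. IFIT3 went from 34.5 ± 2.45% to 38.8 ± 0.242% and IFIT1 from 18.02 ± 0.778% to 16.1 ± 0.798% (SD, n = 3 each). The log2 ratio of IFIT2 to IFIT3 was -0.64, -0.78 and -0.79 with DMSO and 0.47, 0.46 and 0.51 with NCD. It was higher by 1.21 with NCD, with no overlap, and the exact permutation test, two-sided, gave p = 0.1, the smallest p that 3 against 3 libraries allow. Of the 12 pairs within a family, 9 did not overlap between the groups, and with Benjamini-Hochberg adjustment over the 12 pairs their p was 0.133. The pairs reuse the same members and are not independent. How often pairs of other genes separate was not computed, so whether the count of 9 is particular to these families is not known. The largest change was that of IFIT2 to IFIT5 at 3.35, and the smallest of those 9 was that of IFIT1 to IFIT3 at -0.33. Within the IFITM genes, the log2 ratio of IFITM2 to IFITM3 was -0.90 ± 0.05 with DMSO and -1.29 ± 0.07 with NCD (SD, n = 3 each), so IFITM2 was lower relative to IFITM3. The ratio of IFITM1 to IFITM2 was higher by 1.01, and that of IFITM1 to IFITM3 by 0.62. The 3 pairs that overlapped were those of IFITM10 with IFITM1 (0.46), IFITM2 (-0.55) and IFITM3 (-0.16). The ratios use log2(CPM + 0.5), an offset that lowers the change of the scarce genes IFITM1 and IFITM10. The fitted log2 fold changes of IFITM1, IFITM2, IFITM3 and IFITM10 were 1.46, 0.21, 0.60 and 0.93.

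**Figure D3:**
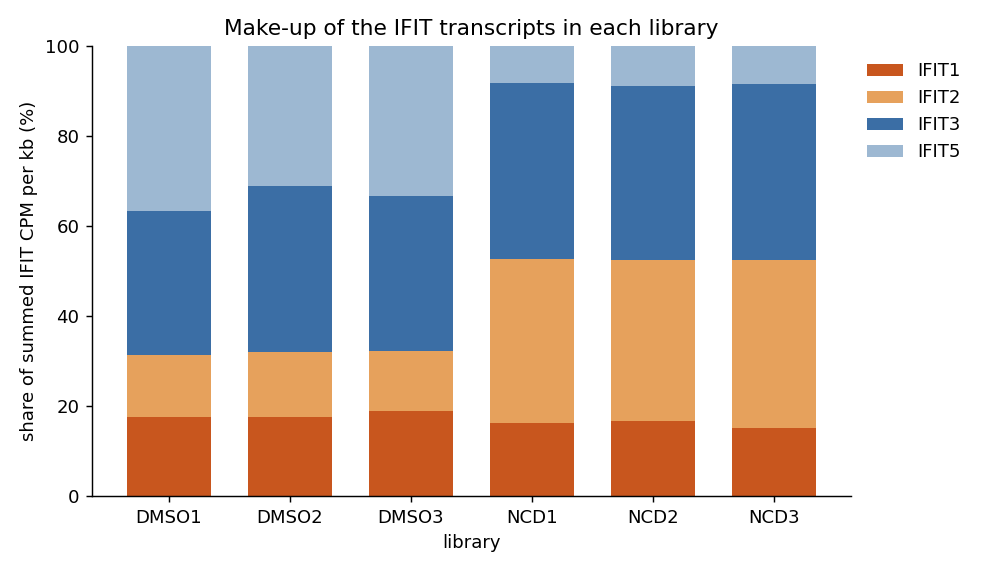
Share of each IFIT gene in the summed IFIT CPM per kilobase (percent) in each of the 6 libraries, 3 with DMSO and 3 with NCD. The IFIT2 share is 36.5% with NCD against 13.8% with DMSO, and the IFIT5 share is 8.56% against 33.7%.

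Around the IFIT genes, 2 of the 4 tested neighbours were called, 1 higher and 1 lower, and 2 were lower without DMSO replicate 1 or without any 1 of the NCD libraries. Across all genes 13.5% were called higher, 17.5% lower and 31.0% in either direction. CH25H, which makes an antiviral hydroxysterol and lies 76.4 kb from IFIT2, rose with a log2 fold change of 3.72 (edgeR adjusted p = 0.000126). Its counts were 6, 0 and 5 under DMSO and 67, 55 and 59 under NCD, and the log2 fold change was 3.13 without DMSO replicate 2. KIF20B, a mitotic kinesin whose gene lies 280.6 kb from IFIT5, had a log2 fold change of -1.82 (edgeR adjusted p = 0.00602) and of -2.65 without NCD replicate 3. IFIT1B was not tested, with 2 counts in NCD replicate 1 and 0 elsewhere. Near the IFITM genes, 3 of 7 tested neighbours were called, against 31.0% of all genes. They were PKP3, a desmosomal plakophilin (log2 fold change 1.15, 13.7 against 6.19 CPM, and 0.99 without DMSO replicate 3), DUSP8, a dual-specificity phosphatase (2.30, 2.75 against 0.558 CPM), and SIGIRR, a negative regulator of interleukin receptor signalling (-1.24, 3.62 against 8.56 CPM). PKP3 and SIGIRR lie 65.1 and 78.2 kb from the nearest member, and DUSP8 lies 160.5 kb from IFITM10.

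**Figure D4:**
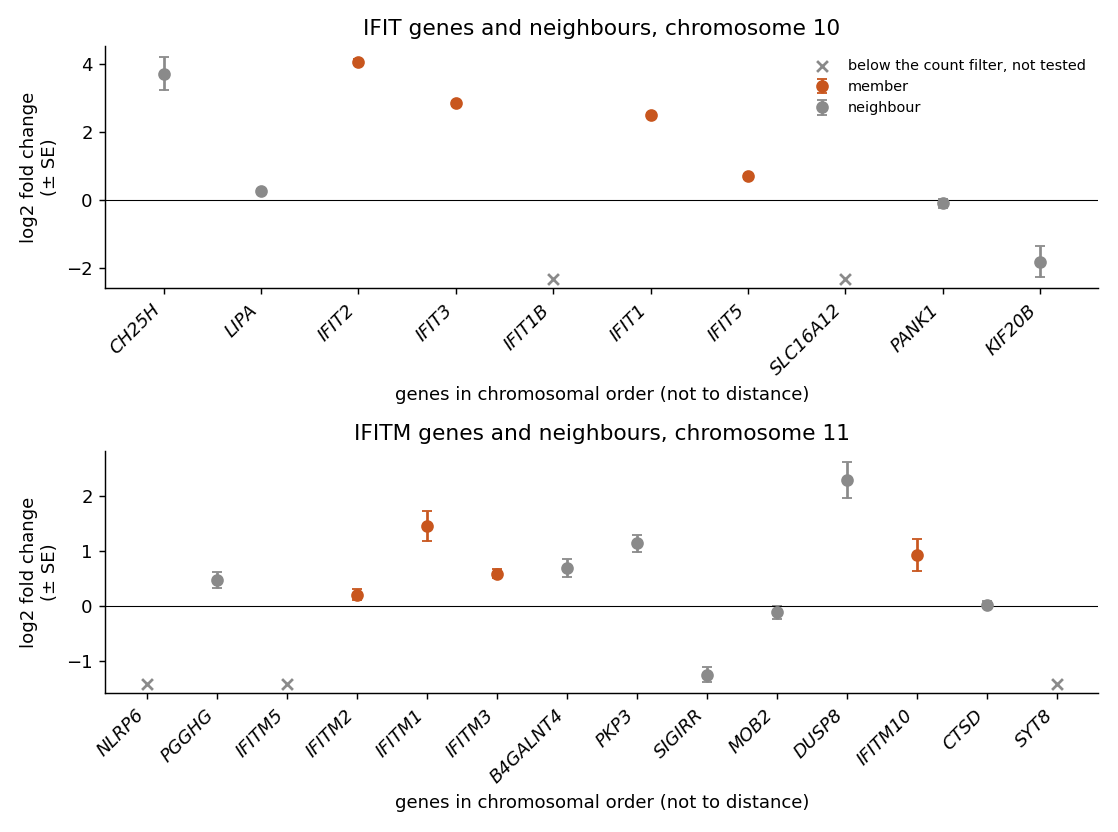
Log2 fold change (NCD against DMSO) of the members and their neighbours in gene order along chromosomes 10 and 11, with the SE as bars and x for genes not tested. The members IFIT2, IFIT3 and IFIT1 stand above LIPA, which spans them at 0.26.

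The other genes of the interferon pathway were read from fixed lists. Of 22 interferon genes none passed the filter to be tested, and 20 had no count in any library. With no filter, 1 of them was called higher. IFNL1 had 7, 10 and 6 counts under NCD, IFNL3 had 1, 4 and 0, and neither had a count under DMSO. Both were named after their values were seen. A count of 0 allows up to 3 counts per library, for counting error only. Of 9 receptor and kinase genes 1 was called higher, IFNLR1, the receptor for the lambda interferons (log2 fold change 1.22, edgeR adjusted p = 0.000313). The kinase genes JAK1 and JAK2 were called lower, with log2 fold changes of -1.15 and -1.61 (edgeR adjusted p = 1.77e-06 and 6.2e-05), and JAK1 was at -0.95, under the fold threshold, with libraries scaled by their totals. Across all genes 13.5% were called higher and 17.5% lower. Of 7 transcription factor genes 4 were called higher and 0 lower. They were STAT2 (log2 fold change 1.55) and IRF9 (1.42), partners in ISGF3, and the interferon regulatory factor genes IRF1 (2.04) and IRF7 (2.49).

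Of 42 other interferon-stimulated genes tested, 22 were called higher and 0 lower (52.4%, median log2 fold change 1.12), and 3 of the 45 listed were not tested. Across all genes 13.5% were called higher. Leaving out DMSO replicate 1 or 3, or NCD replicate 1 or 3, gave 1 lower call. Without the fold threshold 3 of the list were lower, named after their values were seen: SP100 (log2 fold change -0.98, edgeR adjusted p = 1.77e-06), PNPT1 (-0.63, 9.54e-05) and RIGI (-0.43, 0.0186). OASL, which encodes a relative of the oligoadenylate synthetases, rose most among those named by rule (log2 fold change 4.69, 3.18 to 82.5 CPM), followed by the antiviral GTPase gene MX1 (2.35) and IFI44 (1.46). Of these 42 genes 2 had a larger log2 fold change than IFIT2: OASL and RSAD2, the gene of viperin, which was named after its values were seen. RSAD2 had 2, 0 and 0 counts under DMSO and 41, 41 and 33 under NCD (log2 fold change 5.35, and 8.17 without DMSO replicate 1). The number with a larger value was 4 for IFIT3, 5 for IFIT1, 13 for IFITM1, 23 for IFITM10, 28 for IFIT5, 30 for IFITM3 and 35 for IFITM2. Among 6 feedback inhibitors, 3 were called higher, among them USP18, which removes ISG15 and restrains the receptor (1.52), and the phosphatase gene PTPN6 (2.34). PTPN6 was scarce, with 6, 6 and 6 counts under DMSO and 51, 34 and 28 under NCD. With at least 10 counts required in every library, 1 of this list was called higher. PIAS1, which encodes an inhibitor of cytokine signalling, was the 1 called lower (-1.44). Across all genes 17.5% were called lower.

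Among 10 cap enzymes and IFIT partners, 2 were called higher and 1 lower. Across all genes 13.5% were called higher and 17.5% lower, so these counts lay near the general shares. RNGTT, which adds the cap guanosine, fell with a log2 fold change of -4.47 (37.7 to 1.69 CPM), while CMTR2, a cap methyltransferase (1.24), and the innate immune adaptor STING1 (1.91) rose. The related methyltransferase CMTR1 was at -0.05 and did not pass (edgeR adjusted p = 0.459), and it was at 0.15 with library totals. Among 8 partners and modifiers of IFITM proteins 0 were called higher and 3 were called lower, against 13.5% and 17.5% of all genes. The lower genes were the palmitoyltransferase gene ZDHHC20 (log2 fold change -1.16), the ubiquitin ligase gene NEDD4 (-1.78) and the kinase gene FYN (-2.44). ZDHHC20 was at -0.97, under the fold threshold, with library totals. ABHD16A, which encodes a depalmitoylating enzyme, was higher without overlap (log2 fold change 0.82, edgeR adjusted p = 1.61e-05) but under the fold threshold, and it was past it at 1.02 with library totals. VAPA (-0.17, edgeR adjusted p = 0.0279) and VCP (-0.14, edgeR adjusted p = 0.0408) were also under the fold threshold, and both turned sign with library totals (0.032 and 0.057). FYN phosphorylates IFITM3 and NEDD4 ubiquitinates it.

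**Figure D5:**
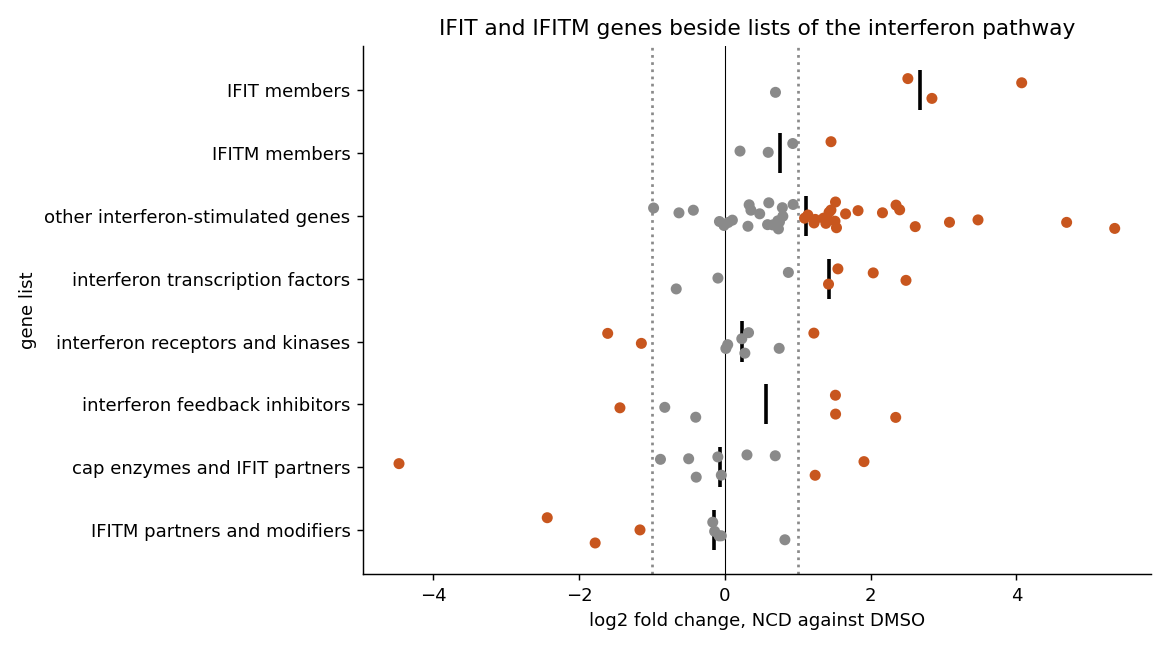
Log2 fold changes (NCD against DMSO) of the tested genes of each list, 1 point per gene, orange where called and grey where not, with the median as a black bar. The IFIT genes (median 2.68) and the other interferon-stimulated genes (median 1.12) lie mostly above 0.

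For each member, 1 other gene with a mean of at least 5 CPM was closest to it over the 6 libraries, after both were set to their DMSO mean, among 10773 genes. These were SLC6A8 for IFIT1 (root mean square difference 0.0982), MISP for IFIT2 (0.129), SLC1A4 for IFIT3 (0.127), CBR4 for IFIT5 (0.0391), BCL2L2-PABPN1 for IFITM1 (0.101), WDR83OS for IFITM2 (0.0189), CMAS for IFITM3 (0.0171) and REL for IFITM10 (0.0616), in log2 units. BCL2L2-PABPN1 had a log2 fold change of 1.16, which was 0.97 without DMSO replicate 2. Profiles were taken as log2(CPM + 0.5), and this offset lowers the change of a gene with a low DMSO level. MISP had only 0.301, 0.509 and 0.383 CPM with DMSO. Its fitted log2 fold change was 5.00, against 4.07 for IFIT2, so their likeness rests in part on the offset. The measure describes likeness of profile only.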

How the data were processed

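In all, 6 RNA-seq libraries of MDA-MB-231 entered. Expected counts per Ensembl gene were deposited by the authors, who aligned with HISAT2, estimated with RSEM and did not normalize. The labels name build GRCh38 (hg38), and tool versions, annotation release and strandedness are not given in the sources used here. The authors tested with DESeq2. Each library had 25 stray annotation lines, which were skipped. Symbols were found for 62720 of 63241 genes, and 58228, with at least 99.4% of the counts, are in GENCODE release 29. Counts were rounded, filtered by filterByExpr (15295 genes kept, all 8 members among them, the lowest of them at 14 counts), scaled by TMM (factors 0.912 to 0.949 with DMSO and 1.059 to 1.092 with NCD) and tested with edgeR 4.0.16 (R 4.3.3, quasi-likelihood, adjusted p below 0.05 and log2 fold change beyond 1). CPM per kilobase uses GENCODE transcript lengths. The promoter windows came from RefSeq (GRCh38.p14). DESeq2 1.42.0, limma 3.58.1 (voom), other scalings and filters, a block for the replicate number, and leaving out libraries singly, were alternatives. Replicate numbers did not pair libraries (correlations 0.473, -0.463 and -0.026 over 11045 genes, of deviations from the group means). Between DMSO replicate 2 and NCD replicate 3, the libraries that stood apart, the correlation was 0.596. Between DMSO replicate 1 and NCD replicate 3 it was -0.599, and the reason was not tested. The procedure was tested on simulated data, with fewer genes changed than were called here and no library set apart. That test therefore does not cover these features of the data. The members and lists were chosen with earlier results of these data known. Named genes are the members, STAT2 and IRF9, the 3 called genes with the smallest p in each list, and the closest profile for each member. LIPA, CMTR1, ABHD16A, VAPA, VCP, RSAD2, SP100, PNPT1, RIGI, IFNL1, IFNL3 and the overlapping and marker genes were named outside this rule, after their values were seen. A gene that the rule covers is not reported here. Ratios between members are differences of log2(CPM + 0.5), and the profiles compared for likeness use the same scale. Depth was 18223594 to 21629653 counts, and 3 libraries per group limit precision. pandas 2.3.3 and scipy 1.17.1 were used for tables and exact tests.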

Additional observations from a re-analysis of the deposited data

How the results depend on the processing

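All 8 members kept a log2 fold change above 0 in all 17 alternatives, and IFIT1, IFIT2, IFIT3 and IFITM1 were called in each. Dropping the fold threshold reused the main fit, and taking DESeq2's unadjusted P reused the DESeq2 fit. Both rules are looser, so neither could remove a call made on the same fit. Leaving out 1 library moved IFIT1 from 2.47 to 2.51, IFIT2 from 4.01 to 4.10, IFIT3 from 2.77 to 2.88, IFIT5 from 0.63 to 0.74, IFITM1 from 1.19 to 1.63, IFITM2 from 0.13 to 0.28, IFITM3 from 0.52 to 0.63 and IFITM10 from 0.69 to 1.09, with 4 to 5 members called higher. Without the fold threshold 7 members, and 57 higher and 20 lower of the listed genes against 35 and 9, passed. IFIT5 (0.70), IFITM3 (0.60) and IFITM10 (0.93) then passed on adjusted p alone, with unchanged log2 fold changes. Scaling by library totals gave IFITM10 a log2 fold change of 1.13 (adjusted p = 0.00976) and 5 members called. It also shifted the median of all genes from 0.04 to 0.23 and the share of calls that were higher from 43.6% to 56.1%. The change of the IFITM3 to IFITM10 ratio, -0.16 as reported, reversed to 0.12 with a pseudocount of 2 CPM, and ran from -0.35 to 0.077 with 1 library left out, at 0.077 without DMSO replicate 1 and 0.067 without NCD replicate 3. With library totals CMTR1 (0.15), VAPA (0.032) and VCP (0.057) also turned sign. Of 32 called genes named beside the members, 27 kept the call in every alternative that tested them. AXL, JAK1 and ZDHHC20 (library totals), PKP3 (without DMSO replicate 3) and BCL2L2-PABPN1 (without DMSO replicate 2) lost it. STAT2 is not among these 32. The causes were not tested. IFITM2 was under the adjusted p of 0.05 with library totals (0.00302), without NCD replicate 3 (0.0145), with no filter (0.0376) and, added after seeing the data, without DMSO replicate 2 and NCD replicate 3 (0.00204), and never past the fold threshold. A replicate block (the numbers share only a label) gave 4 members higher and 0 lower, with IFITM10 at 0.95 and IFITM2 at 0.21. Depth limits IFITM1 and IFITM10, at 14 to 83 counts per library.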

Other observations

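Of the other 16 genes of the families in the tables, among them IFIT1B, IFITM5 and pseudogenes, none was tested and none had more than 5 counts in a library. Counts of the pseudogene IFITM3P1 were 1, 0 and 1 under DMSO and 4, 5 and 4 under NCD, those of IFITM9P 0, 0 and 4 against 4, 4 and 4, and those of IFITM3P3 0, 0 and 5 against 3, 3 and 0. IFITM5 had no count in any library.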
